A study of Mus musculus with 18 samples.

Results

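The genes described here are the mouse zinc finger genes whose symbols run from Zfp900 to Zfp999. The array carried a probe set assigned to 1 such symbol alone for 34 of them, out of 19938 genes measured in that way, and where a gene had several such probe sets the one with the highest mean was taken. Membership follows the name and the probe set assignment, with no threshold on a measured difference, although results of these data were known when the series was picked. All 34 matched RefSeq under the same symbol, on 11 chromosomes of the GRCm38.p6 build. A further 27 probe sets were assigned to several symbols that include a name of this series, and these were kept apart.

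Most genes with these numbers encode C2H2 zinc finger proteins, in which strings of small zinc-binding loops read DNA. Many mouse proteins of this kind also carry a KRAB domain, which recruits the co-repressor TRIM28 (KAP1) and the histone methyltransferase SETDB1, and such pairs silence transposable elements in embryonic stem cells. Many lie in clusters of recent duplicates that differ between species and even between mouse strains, and the cluster at the distal end of chromosome 4 is largely specific to the mouse. Zfp979, known also as Ssm1b, was first met as a strain-specific modifier of transgene methylation.

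Expression was measured on 18 Affymetrix Mouse Gene 1.0 ST arrays in 12 groups. Mouse embryonic fibroblasts carrying ROSA-rtTA and a Nanog-GFP reporter on a C57BL/6 background received a piggyBac cassette of Oct4, Klf4, c-Myc and Sox2 linked to mCherry, in a form giving a low (OKMS) or, with a longer KLF4, a high (OK+9MS) amount of KLF4, called low-KLF4 and high-KLF4, and were treated with doxycycline at 1 µg/mL. The mCherry+ cells, which still expressed the cassette, were sorted on day 2, day 4, day 8 (2 arrays for each cassette) and day 18, after a passage on day 8. The remaining arrays held 2 low-KLF4 iPSC clones (A7 and A9), 2 high-KLF4 iPSC clones (A10 and H10), 2 samples of the mESC line 1A2, derived from male mice homozygous for the Nanog-GFP transgene, and 2 samples of primary keratinocytes from newborn pups at postnatal day 2. Each iPSC array is a different clone, the mESC samples come from 1 line, and the starting fibroblasts are not analysed here. All values below are RMA signals in linear units unless a log2 difference is named, and the 6 arrays of iPSC clones and mESC are called pluripotent. Array medians lay between 139.4 and 161.6, and the files carry no detection call, so the lowest signals cannot be told apart from no expression.

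Markers went with the labels for the most part. All 10 pluripotency markers were higher in the pluripotent arrays than in the sorted cells, and all 10 keratinocyte markers and 9 of 10 fibroblast markers were lower (limma, adjusted p under 0.05). The largest differences were those of Dppa5a (4.87, SE 0.0723) and Tdgf1 (4.76, SE 0.111) among the first, Itgb4 (-2.94, SE 0.145) and Krt6a (-2.67, SE 0.107) among the second, and Col1a2 (-1.98, SE 0.396) and Postn (-1.92, SE 0.523) among the third, all log2. The 10 keratinocyte markers summed to 61395 to 64125 in keratinocytes and 4269 to 26181 in sorted cells of days 2 to 8. Those sorted cells differed by cassette, with Krt14 at 1709 to 5459 in high-KLF4 and 113 to 315 in low-KLF4. Krt15 barely marked keratinocytes, at 127 and 115 there and 78.4 to 120 elsewhere. The summed signal of the 10 pluripotency markers was 40123 to 46606 in the pluripotent arrays, 976 to 6380 in sorted cells of days 2 to 8, and 19204 to 29444 on day 18. The sorted cells of day 18 thus already held pluripotency transcripts: Dppa5a read 6885 in low-KLF4 and 4296 in high-KLF4, against 60.6 to 498 on the earlier days. Sox2 read 2813 in low-KLF4 and 1720 in high-KLF4, against 85.0 to 175 on the earlier days. Sox2 is also a cassette factor, and how far its probe set reads cassette transcripts was not tested. Some markers were up sooner. Nanog in low-KLF4 read 992 on day 4, 2565 and 2464 on day 8 and 2557 on day 18. In high-KLF4 it read 888 and 963 on day 8 and 2381 on day 18. Fibroblast transcripts remained in the pluripotent arrays, where the 10 fibroblast markers summed to 5023 to 9218 and Col1a1 read 827 to 1520. These sums overlapped those of sorted cells on days 2 to 8, at 7798 to 36489. The day 8 arrays of each cassette disagreed, with Col1a1 at 6952 and 1783 in low-KLF4 and 6367 and 1852 in high-KLF4. Of the 10 pluripotency markers, 1 was lower and 1 higher in the iPSC clones than in mESC (limma, adjusted p under 0.05). Zfp42 (Rex1) was lower, at 174 to 370 in the clones and 2237 and 2386 in mESC. Dppa3 was higher, at 610 to 730 in the clones and 134 and 147 in mESC. How far cells with fibroblast transcripts contributed to the signals below was not tested.

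No member met the strict criterion for being on only in pluripotent cells, but Zfp979 and Zfp980 came closest, and the day 18 arrays alone kept them from it. The criterion asked that the lowest pluripotent array stand at least 2-fold above the highest of the other 12 arrays, and that this highest value lie below the median of its own array. It was met by 0.181% of all genes. With the day 18 arrays set aside it was met by Zfp979 and Zfp980, and by 0.436% of genes. Without the limit on the level in the other arrays it was met by Zfp979, Zfp980 and Zfp991, and by 0.517% of genes.

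**Figure D1:**
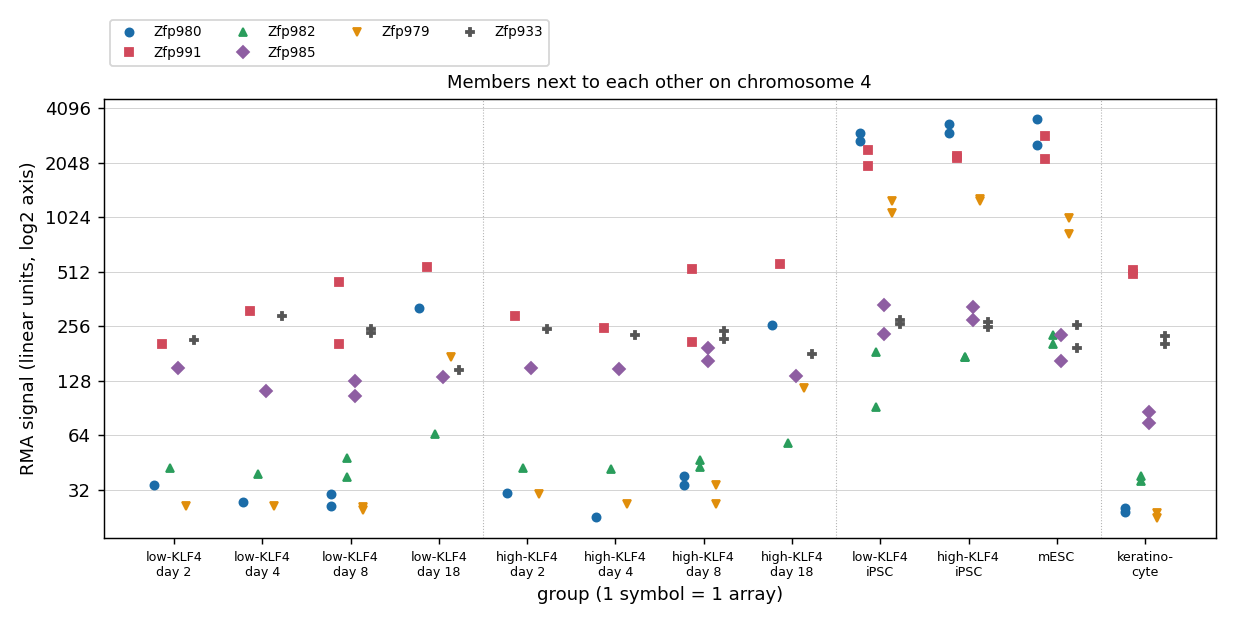
RMA signal (log2 axis) of the 6 Zfp900-series genes that neighbour each other on chromosome 4, by group, with 1 symbol for each array. Zfp980 and Zfp979 lay between 22.2 and 38.0 in sorted cells of days 2 to 8 and in keratinocytes, between 117 and 322 on day 18, and between 831 and 3594 in pluripotent cells, whereas Zfp933 kept to between 147 and 290 throughout.

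The promoters of Zfp980, Zfp979 and their neighbour Zfp933 are shown because the first and second were the members with the largest change and the third, in the same cluster, changed least of its neighbours. They were chosen after the values were seen. Each is the 250 bases before the RefSeq start, written from 5′ to 3′ on the strand of the gene, and the capitals mark the 2 longest runs shared by the promoters of Zfp979, Zfp980, Zfp982 and Zfp985, of 21 bases each. The windows lie at chr4:145670447-145670696 on the plus strand for Zfp980, at chr4:147642509-147642758 on the minus strand for Zfp979 and at chr4:147848419-147848668 on the minus strand for Zfp933.
Zfp980: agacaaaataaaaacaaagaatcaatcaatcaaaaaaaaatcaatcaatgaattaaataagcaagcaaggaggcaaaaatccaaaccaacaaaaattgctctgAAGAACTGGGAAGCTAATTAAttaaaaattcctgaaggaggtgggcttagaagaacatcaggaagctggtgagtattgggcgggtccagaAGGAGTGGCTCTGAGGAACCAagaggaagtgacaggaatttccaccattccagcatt
Zfp979: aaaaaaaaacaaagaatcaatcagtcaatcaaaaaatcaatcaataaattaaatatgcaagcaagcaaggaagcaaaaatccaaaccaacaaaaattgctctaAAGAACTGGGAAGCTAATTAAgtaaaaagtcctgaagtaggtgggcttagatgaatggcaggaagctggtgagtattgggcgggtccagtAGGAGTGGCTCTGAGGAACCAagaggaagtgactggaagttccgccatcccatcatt
Zfp933: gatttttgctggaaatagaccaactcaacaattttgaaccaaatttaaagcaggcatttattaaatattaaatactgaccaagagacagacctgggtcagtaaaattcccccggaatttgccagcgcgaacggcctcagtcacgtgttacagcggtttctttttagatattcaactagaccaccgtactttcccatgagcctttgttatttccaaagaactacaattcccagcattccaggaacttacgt
The Zfp980 and Zfp979 promoters were 89.0% identical over their global alignment, and those of Zfp982 and Zfp985 were 83.1% and 82.0% identical to Zfp980. Zfp982 has 3 annotated starts, and this value is for the one most like Zfp980; the other 2 reached 42.5% and 45.1%. Zfp933 reached 49.3%, close to the median of 47.5% among 423 pairs of members on different chromosomes. The shared runs AAGAACTGGGAAGCTAATTAA and AGGAGTGGCTCTGAGGAACCA were each found, counting both strands, in 9 of 32851 promoters (0.0274%), which for both belong to Rex2, Zfp534, Zfp600, Zfp987, Zfp988 and the 4 members. No start of Zfp991 was in the promoter table.

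Motifs of the reprogramming factors were then searched in the 250-base promoters of the 32 members with an entry, on both strands. The POU octamer ATGCAAAT and the KLF motif GGGTGTGG were in no member promoter and in 1.6% and 3.2% of all promoters. At shares this low, absence from 32 members says little. The SOX motif ACAAAG was in promoters of 6 members, among them Zfp979, Zfp980, Zfp982 and Zfp933, and in 16.5% of all promoters. The MYC E-box CACGTG was also in promoters of 6 members, 5 of them on chromosome 17, and in 6.02% of all promoters. A member was counted if any of its starts held the motif, over 39 promoters, whereas the shares count each promoter. Such matches are a description of letters and not of binding.

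Zfp980 (chromosome 4, 145670697 to 145704437) read 34.1, 27.5, 30.4 and 26.0 on the low-KLF4 arrays of days 2, 4, 8 and 8, and 30.7, 22.6, 38.0 and 34.0 on the high-KLF4 arrays of the same days. It read 322 and 261 on day 18, 2989 and 2694 in the low-KLF4 clones, 3348 and 2979 in the high-KLF4 clones, 3594 and 2586 in mESC, and 25.2 and 24.1 in keratinocytes. The 3 levels did not overlap, with the early and keratinocyte arrays lowest, both day 18 arrays in the middle and all 6 pluripotent arrays above. The pluripotent groups exceeded the sorted groups by a log2 difference in signal of 5.85 (SE 0.0843, limma adjusted p = 4.33e-09), above day 18 by 3.38 (SE 0.131, adjusted p = 3.18e-06) and above keratinocytes by 6.93 (SE 0.131, adjusted p = 1.17e-08). Day 18 in turn stood 3.16 above day 2 (SE 0.160, adjusted p = 1.29e-05). Zfp980 and Zfp979 had been named beforehand as examples of expression in pluripotent cells only, with results of these data known. The p-values of both genes are therefore no independent support for that pattern. The early and keratinocyte signals lay so near the lowest value in the files, 20.2, that these sizes describe signals and set no exact fold of expression. In sorted populations, a lower signal from every cell and a full signal from fewer cells cannot be told apart, so the day 18 values do not say which held.

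Zfp979 (chromosome 4, 147611936 to 147642508) followed the same course at a lower signal. It read 24.8 to 26.1 on the 4 low-KLF4 arrays of days 2 to 8 and 26.5 to 34.0 on the 4 high-KLF4 arrays, 174 and 117 on day 18, and 23.7 and 22.2 in keratinocytes. The low-KLF4 clones read 1081 and 1255, the high-KLF4 clones 1289 and 1263, and mESC 1011 and 831. The early and keratinocyte arrays did not overlap with day 18, nor day 18 with the pluripotent arrays, and on the low-KLF4 array of day 18 the gene lay just above the middle of the array, at 51.6%. The difference from the sorted groups in signal was 4.75 on the log2 scale (SE 0.0745, adjusted p = 5.69e-09), that from day 18 was 2.96 (SE 0.116, adjusted p = 3.33e-06), and day 18 exceeded day 2 by 2.34 (SE 0.142, adjusted p = 3.12e-05), and the same limit on the early signals holds.

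The probe set of Zfp991 read well above the lowest signals in the other cells too. It read 203 to 310 in sorted cells of days 2 and 4, 542 and 564 on day 18, 524 and 497 in keratinocytes, and 1966 to 2879 in the 6 pluripotent arrays. The day 8 arrays disagreed, at 204 and 447 in low-KLF4 and 209 and 528 in high-KLF4, so that the second array of each cassette was more than 2-fold above the first. All pluripotent arrays stood above all others, and the difference from sorted cells was 2.79 (SE 0.238, 6.92-fold, adjusted p = 3.10e-05). Zfp982, which has been studied as a regulator in mouse embryonic stem cells, was dim, at 37.7 to 47.8 on days 2 to 8, 65.3 and 57.7 on day 18, and 91.5 to 230 in pluripotent cells, a difference from sorted cells of 1.88 (SE 0.146, adjusted p = 1.85e-05). The clone A7, at 91.5, was the lowest of its pluripotent arrays, and the next was 173.

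The 3 probe sets of Zfp985 disagreed on the size of its change. The brightest read 106 to 194 in sorted cells and 165 to 336 in pluripotent cells, which overlapped, and gave a difference of 0.87 (SE 0.115, adjusted p = 0.000367). Another read 26.7 to 37.4 in sorted cells, 24.4 and 25.5 in keratinocytes and 123 to 218 in pluripotent cells, a difference of 2.33 (SE 0.127, adjusted p = 2.80e-06), and this one, alone among the 36 probe sets of members, met the strict criterion. Zfp933 differed by 0.20 (SE 0.0707, adjusted p = 0.0393), and its pluripotent and sorted arrays overlapped. Its difference was 0.06 with the day 18 arrays set aside, which did not pass.

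Probe sets that the chromosome 4 members share with one another or with other genes were also higher in pluripotent cells, but their early levels differed. One with 13 symbols, Zfp980 among them, read 217 to 349 on days 2 to 8 and 3343 to 4896 in pluripotent cells. One with 8 symbols, again with Zfp980, read 925 to 1672 on days 2 to 8 and 1708 and 1439 in keratinocytes. It read 6242 to 7988 in pluripotent cells, a difference from sorted cells of 2.23. The one assigned to Rex2, Zfp981, Zfp980, Zfp600, Zfp987 and Zfp979 was nearest in course to Zfp980 and Zfp979. It read 65.1 to 114 on days 2 to 8, 1752 and 1078 on day 18, 5494 to 8290 in pluripotent cells and 59.3 and 58.1 in keratinocytes. Zfp600, a neighbour outside the number series that is measured by a probe set of its own, read 22.9 to 24.4 in early sorted cells and keratinocytes, 75.5 and 85.0 on day 18, and 235 to 520 in pluripotent cells. Transcripts of one gene may bind the probes of another in this cluster, so the level of a single member is uncertain even where the annotation gives 1 symbol. Of the 27 probe sets with several symbols, 24 were higher in pluripotent than in sorted cells and 0 lower. Of all probe sets tested, 23.5% were higher and 31.9% lower. Many of the 27 share transcripts with each other, and a pair with the same symbols read the same on every array, so they are not separate observations.

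The genes outside the series whose group means followed Zfp979 most closely over the 12 groups were Mael (Pearson r = 0.996), Pecam1, Tdrd12, Mcf2 and Gm14410 (0.994). Mael and Tdrd12 act in the piRNA pathway of the germline, and Pecam1 is a surface adhesion protein also found on stem cells. For Zfp980 they were Mcf2 (0.995), Pecam1, Gm14410, Tdrd12 and Zfp600 (0.993). Mael itself read 32.4 to 36.8 on days 2 to 8, 184 and 86.8 on day 18, and 570 to 922 in pluripotent cells. These correlations are a description, since the groups share a reprogramming course and any gene low early and high late will score well.

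**Figure D2:**
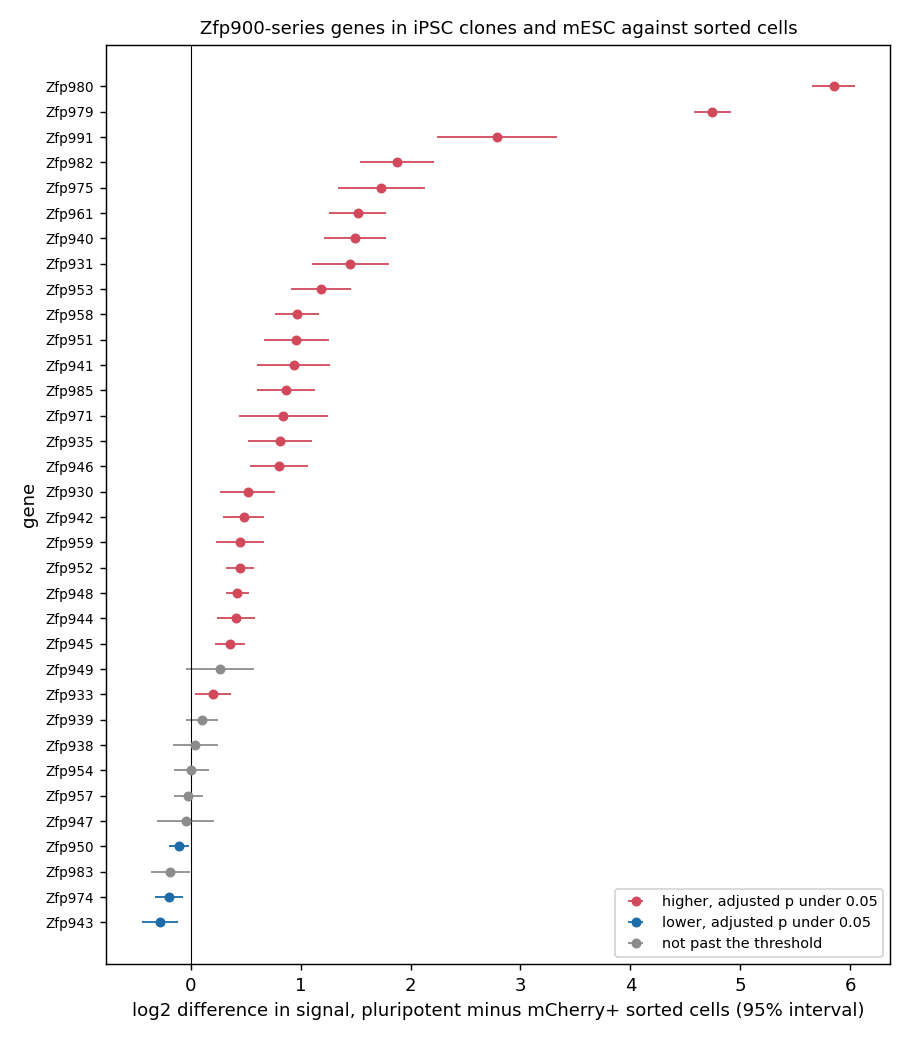
Fitted log2 difference in signal between the pluripotent groups and the mCherry+ sorted groups (x axis, with its 95% interval) for each of the 34 genes (y axis). Of these, 24 were higher (red), 3 lower (blue) and 7 not past the threshold (grey), and Zfp980 and Zfp979 lay far from the rest at 5.85 and 4.75.

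Across the whole series of 34 genes, most were higher in iPSC clones and mESC than in sorted cells, but by little. Against the 8 sorted groups, 24 members were higher and 3 lower, where 23.5% and 31.9% of all probe sets tested were higher and lower. The median difference was 0.50 on the log2 scale among members and -0.07 among all probe sets. Other numbered Zfp genes were higher in 136 of 283 cases and lower in 60, with a median of 0.20. A rise of at least 2-fold that passed the test was seen in 9 members, and in 4.28% of all probe sets. All 6 pluripotent arrays stood above all other 12 arrays for 12 members, where 8.4% of all genes did so. On day 8 the second array read higher than the first in both cassettes for 23 members (67.6%, against 36.7% of probe sets), and without these second arrays 26 members were higher and 3 lower.

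Beyond chromosome 4, the larger rises were spread over the genome. Zfp975 (chromosome 7) read 67.2 and 84.4 on day 2, 139.8 to 238 on day 8 of both cassettes, 145 and 153 on day 18, and 366 to 537 in pluripotent cells. Its difference from sorted cells was 1.73 (SE 0.172, adjusted p = 7.17e-05), and shared probe sets that include it and Zfp936 gave up to 3.58. Zfp961 (chromosome 8) read 253 to 474 in sorted cells, 211 and 218 in keratinocytes, 772 to 935 in the iPSC clones, and 1685 and 1147 in mESC, a difference from sorted cells of 1.52 (SE 0.113, adjusted p = 1.44e-05). Both genes had pluripotent arrays above every other array.

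Zfp931 and Zfp971 neighbour each other on chromosome 2 (178023284 to 178078425) and shared a dip on day 18. Zfp931 read 81.5 to 128 on days 2 to 8, 42.7 and 68.6 on day 18, and 134 to 318 in pluripotent cells, a difference from sorted cells of 1.45 (SE 0.155, adjusted p = 0.000106). Zfp971, whose signal averaged over all arrays was the highest, read 658 to 1526 on days 2 to 8, 627 and 802 on day 18, and 1606 to 2376 in pluripotent cells, a difference of 0.84 (SE 0.177, adjusted p = 0.00428). Its second day 8 arrays, 807 and 658, lay near the day 18 values, whereas the first read 1526 and 1141. The day 18 to day 2 difference passed the test for neither gene. Zfp953 (chromosome 13) and Zfp958 (chromosome 8), which differed from sorted cells by 1.19 (SE 0.120) and 0.96 (SE 0.0874), completed the 10 largest rises with Zfp940, described below. The other 14 rises, among them Zfp951, Zfp941, Zfp935, Zfp946, Zfp930, Zfp942, Zfp959 and Zfp952, lay between 0.20 and 0.96. Against the day 8 cells alone, Zfp930 (0.31), Zfp942 (0.16), Zfp944 (0.19) and Zfp933 (0.09) did not pass. The 7 members past no threshold were Zfp949, Zfp939, Zfp938, Zfp954, Zfp957, Zfp947 and Zfp983, with differences from -0.19 to 0.26.

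The 3 falls were small. On the log2 scale Zfp943 fell by 0.28 with an SE of 0.0725 (adjusted p = 0.0113), Zfp974 by 0.20 (SE 0.0569, adjusted p = 0.0171) and Zfp950 by 0.11 (SE 0.0405, adjusted p = 0.0486). Zfp950, whose signal averaged over all arrays was the lowest, read 35.0 to 46.6 over all arrays, and Zfp974 read 50.1 to 80.0. Zfp943 did not pass the methods' t-test. The calls of Zfp950 and Zfp974 were lost when the arrays were quantile normalized a second time, and that of Zfp950 also in 11 of the 12 fits that left out 1 array, all but the fit without the second low-KLF4 array of day 8.

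Against keratinocytes, which never carried the cassette, 20 members were higher in pluripotent cells and 4 lower, where 23.4% and 20.9% of all probe sets were. Zfp983 was the clearest exception, at 158 and 147 in keratinocytes and 61.8 to 107 elsewhere, a difference of -1.14 (SE 0.121, adjusted p = 9.74e-05). Zfp949 read 341 and 210.5 in keratinocytes and 117 to 196 elsewhere, with keratinocyte arrays that disagreed, and differed by -0.66 (SE 0.210, adjusted p = 0.0316). Zfp943 and Zfp974 were the other members lower in pluripotent cells. Without the first keratinocyte array 13 members were higher and 2 lower.

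Day 18 cells were lower than pluripotent cells in most members. Pluripotent cells were higher in 26 members and lower in 1, against 18% and 14% of all probe sets, with a median difference of 0.88. The member that was lower was Zfp938, which read 1891 and 1466 on day 18, 1082 and 1330 on day 2, and 1058 to 1522 in pluripotent cells, a difference of -0.47 (SE 0.138, adjusted p = 0.0310). These comparisons share the pluripotent arrays, and this one also shares the day 18 arrays with the test of the time course.

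**Figure D3:**
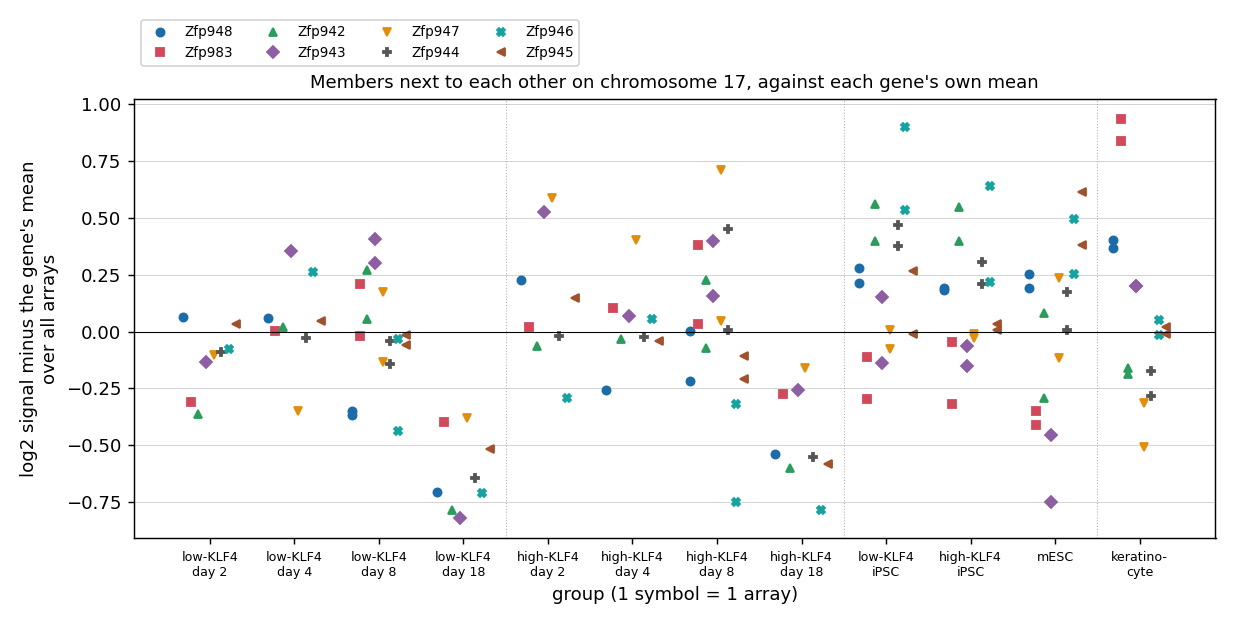
Log2 signal of the 8 neighbouring Zfp900-series genes on chromosome 17, minus the mean of each gene over all 18 arrays, by group with 1 symbol for each array. The day 18 arrays of both cassettes held only values below 0, and Zfp983 was higher in both keratinocyte arrays than in any other array.

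From day 2 to day 18, 2 members rose (Zfp979 and Zfp980) and 7 fell. These are 5.88% and 20.6% of members, against 7.71% and 12.8% of all probe sets, so the share that rose was no higher than among all. Both day 18 arrays lay below both day 2 arrays in 17 members, where 39.1% of all genes did so, and above them in 11, where 21.6% did so. The day 2 and day 18 groups had 1 array for each cassette, whose spread was taken to be that of the replicated groups.

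Of the 7 falls, 4 lay among the 8 genes that neighbour each other on chromosome 17 (21565816 to 22867309). The genes are Zfp948, Zfp983, Zfp942, Zfp943, Zfp947, Zfp944, Zfp946 and Zfp945, in that order. In 7 of them both day 18 arrays lay below both day 2 arrays, as they did in both genes of the chromosome 2 pair. Zfp948 read 1061 and 1187 on day 2, 788 to 1017 on day 8, 622 and 698 on day 18, and 1152 to 1234 in pluripotent cells. It fell by 0.77 (SE 0.0864, adjusted p = 0.000735) from day 2 to day 18 and was 0.84 higher in pluripotent cells than on day 18 (SE 0.0706, adjusted p = 9.38e-05). Zfp943 fell by 0.74 (SE 0.138, adjusted p = 0.00717), Zfp945 by 0.64 (SE 0.113, adjusted p = 0.00562) and Zfp944 by 0.54 (SE 0.142, adjusted p = 0.0284). Against all sorted cells, 5 of the 8 were higher in pluripotent cells and 1 lower, with a median difference of 0.38, where the 6 on chromosome 4 were all higher with a median of 2.33. Of those 6, Zfp933 was higher by only 0.20, and by 0.06 with the day 18 arrays set aside. The groups of neighbours were drawn after the values were seen, as members less than 1.5 Mb apart. Zfp980, which ends at 145704437, fell just within that limit of Zfp991, which starts at 147132093.

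**Figure D4:**
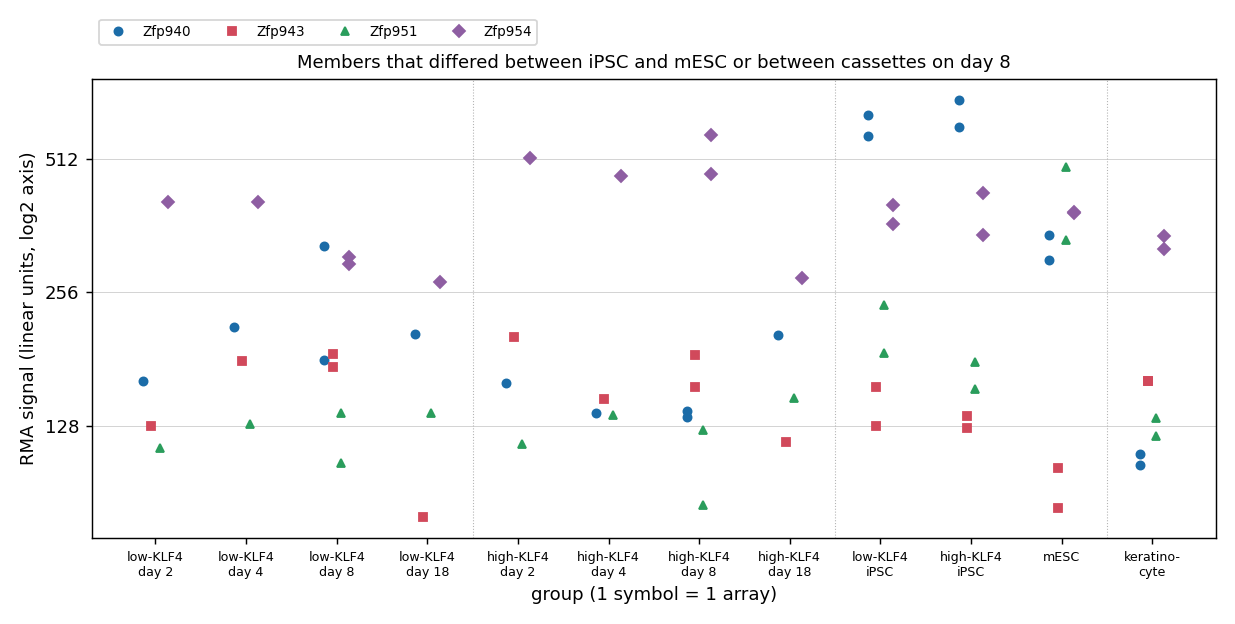
RMA signal (log2 axis) of Zfp940, Zfp943, Zfp951 and Zfp954 by group, with 1 symbol for each array. In Zfp951 the mESC arrays (490 and 337) stood above the iPSC clones (155 to 239), in Zfp940 below them, and in Zfp954 the high-KLF4 arrays of day 8 stood above the low-KLF4 arrays.

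The iPSC clones and mESC differed in 3 members, with 2 higher in the clones and 1 lower, against 2.02% and 2.28% of all probe sets. Zfp951 (chromosome 5) read 187 and 239 in the low-KLF4 clones, 179 and 155 in the high-KLF4 clones, and 490.0 and 337 in mESC. Clones minus mESC came to -1.11 (log2, SE 0.214, adjusted p = 0.0274). Zfp940 (chromosome 7) read 578, 644, 603 and 696 in the clones and 303 and 345 in mESC, a difference of 0.96 (SE 0.203, adjusted p = 0.0386). Zfp943 read 127 to 156 in the clones and 103 and 83.6 in mESC, a difference of 0.55 (SE 0.119, adjusted p = 0.0414). In all 3 the clones and mESC did not overlap. All 3 calls were lost in fits that left out any single iPSC, mESC or keratinocyte array, although the differences stayed between 0.86 and 1.05 for Zfp940, 0.40 and 0.70 for Zfp943, and -1.38 and -0.84 for Zfp951. Zfp980 and Zfp979 differed by -0.03 and 0.41 and passed no test here.

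The cassettes differed on day 8 in 1 member, where 2.71% of all probe sets were higher and 1.29% lower in high-KLF4. Zfp954 (chromosome 7) read 297 and 307 in the low-KLF4 cells and 473 and 579.6 in the high-KLF4 cells, which did not overlap. The difference was 0.80 (SE 0.131, adjusted p = 0.0144), and it also lay higher in high-KLF4 on day 2, at 514 against 409, and on day 4, at 469.5 against 410.4, but not on day 18, at 276 against 271. The call was lost without the second array of either cassette and in a fit of the day 8 arrays alone, with values of 0.65 to 0.82. Zfp940 read 180.1 and 325 on the low-KLF4 arrays of that day and 134 and 139 on the high-KLF4 arrays, which gives high minus low as -0.83 (SE 0.234, adjusted p = 0.104), which passed with the array number as a block. The change from day 8 to the iPSC clones differed between cassettes in 0 members by limma, where 0.154% of all probe sets differed upward and 0.671% downward. At an unadjusted p under 0.05 it differed in 4 of 34 members and in 2419 of 23410 probe sets.

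The partners of KRAB zinc finger proteins were listed for comparison. Of 15 co-repressor genes measured, 9 (60%) were higher in pluripotent than in sorted cells and 1 (6.67%) lower, beside 23.5% and 31.9% of all probe sets. Atf7ip2 differed by 1.28 (SE 0.148) and Smarcad1, a chromatin remodeller, by 1.25 (SE 0.0423), and Chd3, a helicase of the NuRD complex, fell by 1.37 (SE 0.0645). Trim28 itself read 2642 to 4160 in sorted cells and 4677 to 6291 in pluripotent cells, a difference of 0.63 (SE 0.0541, adjusted p = 3.22e-05). Of 14 zinc finger genes studied in pluripotency, imprinting or repeat control, 12 (85.7%) were higher and 1 (7.14%) lower. The largest rises were those of Zfp42, at 2.90 (SE 0.158), and Zscan10, at 2.69 (SE 0.157), and Yy1 fell by 0.20 (SE 0.0389). The rise of Zfp42, also among the pluripotency markers, was uneven, at 174 to 370 in the clones and 2237 and 2386 in mESC. Zscan10 read 1783 to 1895 in the clones and 2048 and 1754 in mESC. Markers of 2-cell-like cells were near the floor, with 4 of 10 measured and a summed signal of 244 to 518 in pluripotent arrays against 213 to 278 on days 2 to 8. Zfp352 (0.72, SE 0.107) and Usp17lc (0.55, SE 0.0977) were higher in the pluripotent groups, but mESC carried most of this. Zfp352 read 210.5 and 155 in mESC and 68.7 to 85.5 in the clones, within the range of sorted cells, and clones minus mESC came to -1.19 (adjusted p = 0.00916) for Zfp352 and -0.85 (adjusted p = 0.0262) for Usp17lc.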

How the data were processed

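RNA from 18 samples was hybridised to Affymetrix Mouse Gene 1.0 ST arrays. The authors normalized the arrays by RMA in GeneSpring and deposited linear signal intensities (20.2 to 19538.7) for 28853 probe sets; other settings are not given in the sources used here. Precision is limited by the number of arrays, 1 or 2 in each group. The platform annotation gave 21789 probe sets 1 symbol, 1621 several and 5443 none.

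Intensities were taken to log2 and fitted with limma 3.58.1 in R 4.3.3, with 1 mean for each of 12 groups (6 residual degrees of freedom, 2.25 prior). P-values were adjusted by Benjamini-Hochberg over the 23410 probe sets with a symbol, at a threshold of 0.05. They measure the spread between arrays of a group, that is, between different clones or, for mESC, day 8 cells and keratinocytes, between repeats that the study calls independent. The fit was tested on simulated data.

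Groups followed the GEO labels. Members and gene lists were chosen with earlier results of these data known. Named genes were those meeting the criterion of pluripotent expression, the 10 largest rises and falls, the calls between iPSC and mESC and between cassettes, the brightest and dimmest members, the closest correlates and the largest changes of each list. Others were named after their values were seen. Promoters and coordinates came from RefSeq (GRCm38.p6). Alternatives covered normalization, dim probe sets, probe choice, fold limits, single arrays, the methods' t-test and a block by array number.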

Additional observations from a re-analysis of the deposited data

How the results depend on the processing

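With a limit of at least 2-fold added, the members called numbered 9 for pluripotent against sorted cells, 13 against keratinocytes, 14 against day 18, 2 for day 18 against day 2, 1 for iPSC clones against mESC and 0 for the cassettes on day 8. The share of all probe sets under this limit was taken only for rises against sorted cells (4.28%), so the other counts have no background. Leaving out 1 array at a time gave 15 to 28 members against keratinocytes, 0 to 4 for iPSC clones against mESC, 0 to 3 for the cassettes on day 8 and 0 to 2 for the difference between cassettes in the change to iPSC clones. For the cassettes on day 8, the methods' t-test with Benjamini-Hochberg adjustment gave 0 members, the day 8 arrays alone gave 0, and the replicate block, with array number as the block, gave 2. The labels do not say that arrays of one number were processed together. The count of members on only in pluripotent cells was 3 with no gap required (Zfp931, Zfp951 and Zfp982), 3 with no limit on the level, 2 with day 18 left out, 1 with any probe set of the gene (Zfp985) and 0 to 1 with 1 array left out (Zfp982 without clone A7). No single member listed changed sign in the comparisons and alternatives run for it, but the split of calls did change. Without clone A9, iPSC clones against mESC gave 0 higher and 2 lower, and the change to iPSC clones gave 1 higher without the first low-KLF4 day 8 array and 2 lower without the first high-KLF4 day 8 array. For pluripotent against sorted cells, the call of Zfp933 was lost in most fits that left out an array and that of Zfp974 without the first mESC array. With day 8 alone as the sorted cells, Zfp930, Zfp933, Zfp942 and Zfp944 were not called, and Zfp943 did not pass the methods' t-test. The cause of these changes was not tested, other than fewer arrays. The number of arrays limits precision, and before day 18 Zfp979 and Zfp980 lie near the lowest signals of the arrays.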
